A study of Mus musculus with 12 samples.

Results

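The 48 genes described here code for the working parts of the lysosome. They are 15 subunits and accessory proteins of its proton pump, 7 proteins of its membrane, 22 hydrolases of its lumen with progranulin, and the transcription factors Tfeb, Tfe3 and Mitf. They were taken by symbol, with a mean of at least 1 FPKM (fragments mapped to a gene, scaled by transcript length and by the depth of the library) over the 12 libraries as the condition. All 48 symbols met it, out of 23234 genes in the table and 10305 genes with such a mean. The libraries are RNA-seq of mouse primary acute myeloid leukaemia cells that carry NRASG12V and the Mll-AF9 fusion on the strain background (FVB/n X C57/BL/6J) F1. The cells were cultured for 24 h in medium with GM-CSF and either the vehicle DMSO, 20 µM PD325901 (an inhibitor of the kinase MEK), 26 µM RAD001 (everolimus, an inhibitor of mTOR complex 1) or 20 µM GDC0941 (an inhibitor of class I PI3 kinases). Each of the 4 groups has 3 libraries, and all of them, DMSO included, share both oncogenes and the cytokine, so no group shows these genes without them. The labels do not say whether replicates are separate cultures or mice, so p-values measure only the spread between these libraries.

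Lysosomes digest proteins, lipids, glycans and glycosaminoglycans in an acid lumen. The acid comes from the vacuolar ATPase (V-ATPase), whose peripheral V1 sector splits ATP and drives the proton-conducting V0 sector in the membrane. Most hydrolases travel there with a mannose 6-phosphate tag, and heavily glycosylated membrane proteins such as LAMP1 line the inner face. Tfeb, Tfe3 and Mitf belong to the MiT/TFE family, which binds a short E-box element known as the CLEAR motif near the start of many lysosomal genes. The mTOR complex 1 is recruited to the lysosome surface and phosphorylates Tfeb, which then stays in the cytoplasm, and ERK, the kinase below MEK, is also known to phosphorylate it. This control acts on the location of the protein, which RNA levels do not measure. Monocytes, macrophages and neutrophil precursors are rich in lysosomes and related granules.

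The sequences below show the E-box that is the core of the CLEAR motif, because it is the element that Tfeb and its relatives are known to bind. The letters TCACGTG were searched on both strands (reverse complement CACGTGA), in windows from 250 bases before to 50 bases after the start of each RefSeq gene on GRCm38.p6, which is not the build of the expression values. Of the 48 members 42 matched a window by symbol, and 14 of the 42 (33.3%) held the motif, against 1160 of 27025 genes in the whole promoter table (4.29%). Each line gives 5′ to 3′ on the gene's own strand, with the motif letters in capitals and overlapping matches merged.
Lamp1: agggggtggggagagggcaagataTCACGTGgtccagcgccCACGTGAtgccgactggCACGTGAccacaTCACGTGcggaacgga
Mcoln1: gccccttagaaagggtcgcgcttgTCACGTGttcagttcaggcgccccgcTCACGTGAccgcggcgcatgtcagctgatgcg
Cln3: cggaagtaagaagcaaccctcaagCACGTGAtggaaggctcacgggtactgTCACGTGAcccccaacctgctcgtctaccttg
Atp6v1a: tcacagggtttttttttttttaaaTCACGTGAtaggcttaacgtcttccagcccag
Atp6v0d1: ccctactgcggTCACGTGAgacgcggtgc
Sgsh: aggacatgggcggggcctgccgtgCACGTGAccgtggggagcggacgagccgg
Naglu: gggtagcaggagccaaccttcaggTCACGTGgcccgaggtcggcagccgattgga
Lgmn: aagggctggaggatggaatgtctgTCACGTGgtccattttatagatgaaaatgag
Lamp1 lies on the plus strand at chr8:13159075-13159160 and holds 4 matches, the last of them 16 bases before the start. Mcoln1 (plus strand, chr8:3500423-3500504) and Cln3 (minus strand, chr7:126583327-126583409) hold 2 separate sites each. In Mcoln1, Cln3, Atp6v1a (minus strand, chr16:44139360-44139415) and Atp6v0d1 (minus strand, chr8:105566051-105566079) the letters also occur as the 8-base palindrome, which reads the same on both strands. Single sites lie before Sgsh (minus strand, chr11:119355511-119355563), Naglu (plus strand, chr11:101069996-101070050) and Lgmn (minus strand, chr12:102439112-102439166). Atp6v0b, Atp6v0e, Gaa, Gla, Glb1 and Arsa also hold the motif. A match describes these letters only and does not show that a factor binds there.

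The summed values were 462335 to 587581 FPKM per library, and relative depth, estimated from the step size of low values, was 0.846 to 1.21 of that of DMSO replicate 1. Absolute depth is unknown, so no counting error can be given. Libraries of a group correlated across genes with Spearman's rho of 0.966 to 0.996. Replicate 1 stood apart for these genes: it held the highest value of its group for 30 of 48 members with DMSO, 42 with PD325901, 29 with RAD001 and 34 with GDC0941. Over the members the median log2 difference of replicate 1 from the mean of the others was 0.09, 0.27, 0.11 and 0.21, against 0.00, 0.04, 0.02 and 0.08 over all tested genes. Myeloid markers were present throughout, with 10 genes (among them Ptprc, Itgam, Spi1 and Csf2ra) summing to 1069 FPKM in the lowest library. In the same list Kit, Hoxa9 and Meis1 were low, at means of 1.63, 2.02 and 2.64 FPKM with DMSO. The mean of Mpo was 23.1 FPKM with DMSO, 19.4 with PD325901, 2.25 with RAD001 and 3.94 with GDC0941. The monocyte and macrophage list (10 genes) summed to 1031 to 1168 FPKM with DMSO, 733 to 784 with PD325901, 2408 to 2546 with RAD001 and 1852 to 2082 with GDC0941. Its genes disagreed. Of 9 tested, 2 were higher and 4 lower with PD325901, 4 and 2 with RAD001, and 2 and 1 with GDC0941. The mean of Csf1r was 245 FPKM with PD325901 against 152 with DMSO, and that of Mrc1 was 1.25 with RAD001 against 10.7. The neutrophil list (10 genes) summed to 16839 to 17636 FPKM with DMSO, 34817 to 45671 with PD325901, 21392 to 25710 with RAD001 and 7998 to 12275 with GDC0941. S100a8 and S100a9 make up most of that sum, and some members went the other way: with RAD001 the mean of Camp was 383 against 643 FPKM with DMSO (not called), and with GDC0941 that of Mmp8 was 682 against 266 FPKM (called higher). Marker lists for erythroid cells, megakaryocytes, B cells, and T and NK cells each summed to at most 8.64 FPKM in any library. Of their genes only Pax5 was at 0 in every library. Cd79b (B cells) averaged 5.03 FPKM with DMSO, 7.09 with PD325901, 1.32 with RAD001 and 1.24 with GDC0941 (the last 2 called lower). Cd3d (T cells) averaged 3.71 FPKM with PD325901 against 1.10 with DMSO (called higher). Stromal and endothelial markers, led by Pecam1, summed to 12.99 to 17.6 FPKM with DMSO and 1.94 to 2.66 with GDC0941. They summed to 7.95 to 11.04 FPKM with PD325901 and 7.06 to 8.48 with RAD001. Mast cell and eosinophil markers reached 167 FPKM in 1 DMSO library and at most 14.0 FPKM in any treated one. The part of these differences in the results below was not tested, and in bulk samples fewer cells of a type and less RNA per cell cannot be told apart.

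With DMSO the members were abundant: their median was 68.6 FPKM, against 11.3 FPKM over all tested genes. Grn, which codes for progranulin, led at a mean of 728 FPKM. The macrophage sialomucin Cd68 followed at 654 FPKM and Lamp1 at 616 FPKM, and the spread of these 3 overlaps between neighbours. At the low end stood Mitf at 9.13, the heparan N-sulfatase Sgsh at 9.17 and the sphingomyelinase Smpd1 at 10.4 FPKM, which also overlap. The pump subunits ran from 43.2 FPKM for Atp6v0a1 to 259.6 FPKM for Atp6v0b. The 23 luminal proteins covered a far wider range, from Sgsh to Grn.

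The comparison of PD325901 with DMSO asks what MEK inhibition changes in these cells. In it 21 of the 48 members were higher and 2 lower (limma with Benjamini-Hochberg adjustment over all tested genes, threshold 0.05). Of all genes tested 18.4% were called higher and 28.2% lower, against 43.8% and 4.17% of the members. Quantile normalization moved the background to 26.0% higher and 23.8% lower and the members to 29 higher and 2 lower. The median log2 change was 0.25 over the members and -0.06 over all genes. The rise lay in the lumen and the membrane: 13 of the 23 luminal proteins and 5 of the 7 membrane proteins were higher and none lower, while of the 15 pump genes 2 were higher and 2 lower. Without DMSO replicate 1 or PD325901 replicate 2 or 3 the lower count was 1, against 24.8%, 23.3% and 24.2% of all genes. With the replicate number as a block, a pairing that the labels do not name, 26 were higher and 2 lower (20.4% and 30.5% of all genes). Without the replicate 1 libraries 26 were higher and 5 lower (22% and 33.2% of all genes). At an unadjusted p under 0.05 limma also called 0 luminal and 0 membrane proteins lower.

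In RAD001 against DMSO, the comparison for mTOR complex 1, 9 members were higher and 7 lower, against 15.4% and 15.9% of all genes. The members' shares of 18.8% and 14.6% lie near that background, and the median log2 change was -0.01 against 0.00 over all genes. Of the 23 luminal proteins 1 was higher and 5 were lower, while all 3 transcription factors and 2 membrane proteins were higher. Pump genes went both ways, with 3 higher and 2 lower. Quantile normalization turned the split to 5 higher and 12 lower, and without the replicate 1 libraries 14 were higher and 13 lower. The shares over all genes were then 17% and 17.6%, and 22.8% and 24.2%. With the replicate block 11 were higher and 10 lower, against 17.6% and 18.4% of all genes. Without RAD001 replicate 2 or 3 the lower count was 4, against 11.9% and 11.1% of all genes.

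In GDC0941 against DMSO, the comparison for PI3 kinase, 14 members were higher (29.2%) and 0 lower, against 11.6% and 12.7% of all genes. At an unadjusted p under 0.05 limma gave 20 higher and 2 lower, the latter Lgmn and Smpd1. The median log2 change was 0.21 over the members and 0.02 over all genes. Of the pump genes 7 of 15 were higher, with 2 of the 7 membrane proteins, 3 of the 23 luminal proteins and 2 of the 3 factors (Tfeb and Mitf). Of the 7 pump calls Atp6v0a1, Atp6v1e1 and Atp6ap1 held in all 22 alternatives. The higher count fell to 7 without DMSO replicate 2 and to 9 without DMSO replicate 3 or GDC0941 replicate 3. Of all genes 6.85%, 7.38% and 9.03% were higher in these fits. The lower count was 4 without GDC0941 replicate 1 and 1 without DMSO or RAD001 replicate 1, against 17.1%, 10.7% and 14% of all genes. Without the replicate 1 libraries 24 were higher and 10 lower, against 18.9% and 23.1% of all genes, so the lower count lies near the background.

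**Figure D1:**
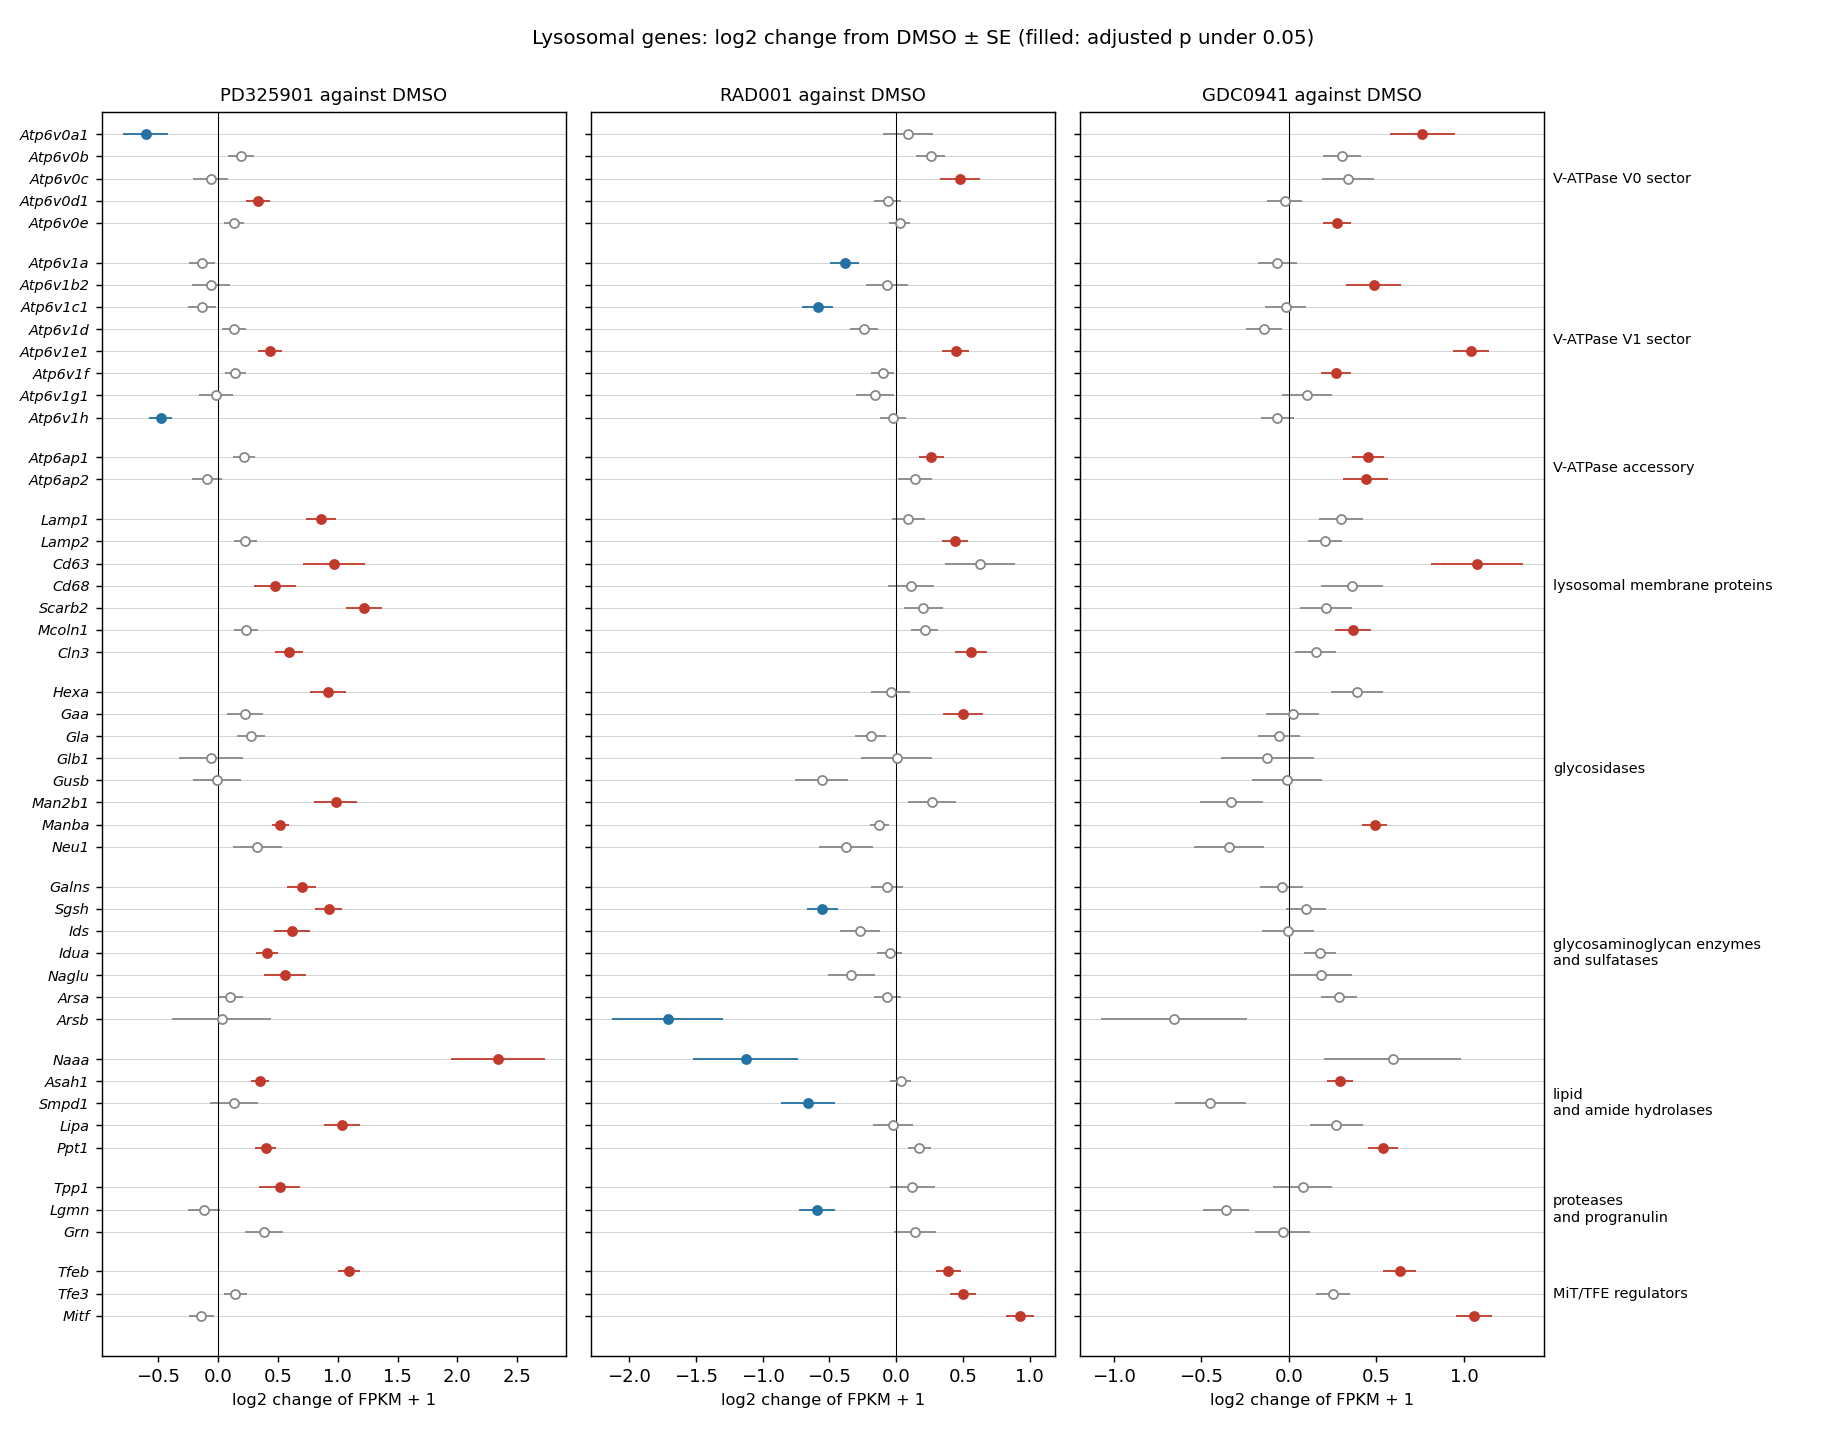
Log2 change of each of the 48 members (limma, log2(FPKM + 1), bars ± SE) for each inhibitor against DMSO, with members in rows grouped by role. Filled red points were called higher, filled blue points lower and open points neither. Red points mark 13 of the 23 luminal and 5 of the 7 membrane rows with PD325901 and 7 of the 15 pump rows with GDC0941, and blue points mark 5 luminal and 2 pump rows with RAD001.

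Across the 3 comparisons 39 members were called at least once and 9 never (Atp6v0b, Atp6v1d, Atp6v1g1, Gla, Glb1, Gusb, Neu1, Arsa and Grn). The 3 comparisons share the DMSO libraries. The share of all genes called at least once was not computed, so the count of 39 has no background to be read against. Single comparisons called 18.4% of all genes higher and 28.2% lower with PD325901. The shares were 15.4% and 15.9% with RAD001, and 11.6% and 12.7% with GDC0941. Atp6v1e1 and Tfeb were higher in all 3. Sgsh and Naaa were higher with PD325901 and lower with RAD001, and Atp6v0a1 was lower with PD325901 and higher with GDC0941.

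The transcription factors come first, since the family is known to regulate lysosomal genes. Tfeb, the best known of them, stood at 16.1, 18.3 and 19.2 FPKM with DMSO, 41.3, 39.2 and 37.3 with PD325901, 25.2, 23.9 and 22.05 with RAD001, and 25.7, 27.9 and 31.1 with GDC0941. Every treated library was above every DMSO library. The log2 change was 1.10 ± 0.09 (adjusted p = 8.54e-06) with PD325901, 0.63 ± 0.09 (adjusted p = 0.000898) with GDC0941 and 0.39 ± 0.09 (adjusted p = 0.00876) with RAD001. Tfeb was also higher with PD325901 than with RAD001 (0.71, adjusted p = 9.12e-05) and GDC0941 (0.46, adjusted p = 0.00155).
Mitf, the melanocyte and osteoclast member of the family, stood at 10.7, 8.29 and 8.39 FPKM with DMSO, 7.75, 8.54 and 8.16 with PD325901, 20.2, 16.7 and 17.7 with RAD001, and 19.8, 19.8 and 20.2 with GDC0941. All RAD001 and GDC0941 values lie above all DMSO values, with ratios of means of 1.99 and 2.18, while the PD325901 values overlap those of DMSO. The log2 change was 0.93 ± 0.10 (adjusted p = 0.000119) with RAD001 and 1.06 ± 0.10 (adjusted p = 7.57e-05) with GDC0941, and -0.14 ± 0.10 (adjusted p = 0.285) with PD325901. The difference between PD325901 and GDC0941 itself was -1.19 ± 0.10 (adjusted p = 4.09e-06).
Tfe3 stood at 31.05, 28.97 and 30.3 FPKM with DMSO, 35.9, 31.7 and 32.7 with PD325901, 38.3, 46.4 and 44.5 with RAD001, and 31.6, 39.1 and 37.8 with GDC0941. Its 3 RAD001 values lie above the DMSO values, with a log2 change of 0.50 ± 0.10 (adjusted p = 0.0032). The changes of 0.14 ± 0.10 (adjusted p = 0.251) with PD325901 and 0.25 ± 0.10 (adjusted p = 0.084) with GDC0941 did not pass, although neither group overlaps DMSO. Of these 3 factors, Tfeb alone was called higher with every inhibitor.

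**Figure D2:**
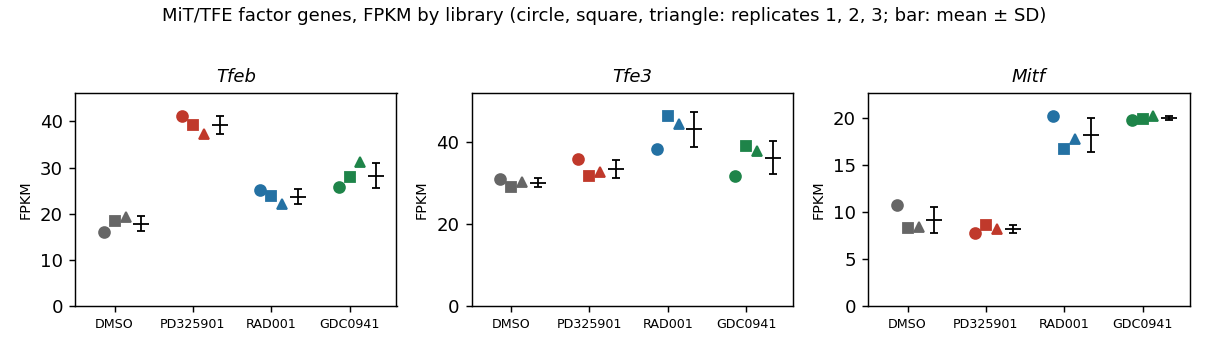
FPKM of Tfeb, Tfe3 and Mitf in each of the 12 libraries, with the group on the x axis and the replicate by marker (circle 1, square 2, triangle 3), bars giving mean ± SD (n = 3). Tfeb is highest with PD325901 at 37.3 to 41.3 FPKM, and Mitf sits at 16.7 to 20.2 FPKM with RAD001 and GDC0941 and near 8 FPKM with PD325901.

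In the lysosomal membrane the rise with PD325901 took in 5 of 7 proteins, against 18.4% of all genes. Lamp1, the major membrane glycoprotein, stood at 559.98, 637 and 652 FPKM with DMSO, 1368, 983 and 1038 with PD325901, 593, 705 and 672 with RAD001, and 744, 740.3 and 787 with GDC0941. Its 3 PD325901 libraries lie above all 9 others, and replicate 1 is the highest of them. The log2 change was 0.86 ± 0.13 (adjusted p = 0.00027), a 1.83-fold ratio of means, and 0.09 ± 0.13 (adjusted p = 0.604) and 0.30 ± 0.13 (adjusted p = 0.107) with RAD001 and GDC0941. Scarb2, the receptor that carries glucocerebrosidase to the lysosome, stood at 27.6, 30.1 and 29.3 FPKM with DMSO, 83.9, 59.96 and 64.4 with PD325901, 26.2, 37.8 and 37.9 with RAD001, and 32.9, 35.4 and 32.9 with GDC0941. It showed the largest change of the group with PD325901, 1.22 ± 0.15 (adjusted p = 8.26e-05), and 0.20 ± 0.15 (adjusted p = 0.317) and 0.21 ± 0.15 (adjusted p = 0.328) with the other inhibitors, so the change was not detected there. The tetraspanin Cd63 stood at 274, 158 and 168 FPKM with DMSO, 597, 295 and 311 with PD325901, 336, 294 and 272 with RAD001, and 414, 378 and 437 with GDC0941. Its change was 0.97 ± 0.26 (adjusted p = 0.0103) with PD325901 and 1.07 ± 0.26 (adjusted p = 0.012) with GDC0941, and the latter call ended without DMSO replicate 2 (adjusted p = 0.0537, log2 change 0.93). With RAD001 it was 0.63 ± 0.26 (adjusted p = 0.0894), or 0.63 (adjusted p = 0.021) with the replicate block. Cd63 has a named pseudogene, and reads may have been split between them.
Cd68 stood at 726, 589.7 and 646 FPKM with DMSO, 1201, 778 and 798 with PD325901, 722, 725 and 666 with RAD001, and 1038, 769 and 733 with GDC0941. The PD325901 libraries lie above the DMSO libraries, but replicate 1 is far above the others. The log2 change was 0.48 ± 0.18 (adjusted p = 0.0439), and the call ended without DMSO replicate 2 or 3, PD325901 replicate 1, RAD001 replicate 2 or 3, or GDC0941 replicate 2 (adjusted p = 0.0524 to 0.162, log2 change 0.27 to 0.48). Cln3, a membrane protein mutated in a childhood neuronal storage disease, stood at 28.6, 27.2 and 27.1 FPKM with DMSO, 48.04, 41.3 and 37.9 with PD325901, 35.7, 42.7 and 45.9 with RAD001, and 27.6, 30.1 and 35.2 with GDC0941. It was higher with PD325901, 0.59 ± 0.12 (adjusted p = 0.00192), and RAD001, 0.56 ± 0.12 (adjusted p = 0.00474), and not called with GDC0941, 0.15 ± 0.12 (adjusted p = 0.384).
Lamp2, the partner of Lamp1 that also serves chaperone-mediated autophagy, stood at 190.2, 153 and 166 FPKM with DMSO, 201, 189.8 and 204 with PD325901, 244, 229 and 217 with RAD001, and 215, 193 and 179.8 with GDC0941. It was called with RAD001, 0.44 ± 0.10 (adjusted p = 0.00557), where its 3 values lie above DMSO, although quantile normalization ended that call at 0.23 (adjusted p = 0.0978). With PD325901 its change was 0.23 ± 0.10 (adjusted p = 0.0712), and 0.23 (adjusted p = 0.0376) with the replicate block. Mcoln1, the calcium channel of the lysosome, stood at 31.3, 26.02 and 25.3 FPKM with DMSO, 37.4, 30.9 and 29.4 with PD325901, 31.7, 31.1 and 33.1 with RAD001, and 37.1, 33.9 and 36.01 with GDC0941. It was called with GDC0941, 0.37 ± 0.10 (adjusted p = 0.0241), a call that ended without DMSO replicate 2 or 3, or GDC0941 replicate 3 (adjusted p = 0.0616 to 0.0948, log2 change 0.31 to 0.36). With PD325901 the change was 0.23 ± 0.10 (adjusted p = 0.0844), and 0.23 (adjusted p = 0.0466) with the block.

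**Figure D3:**
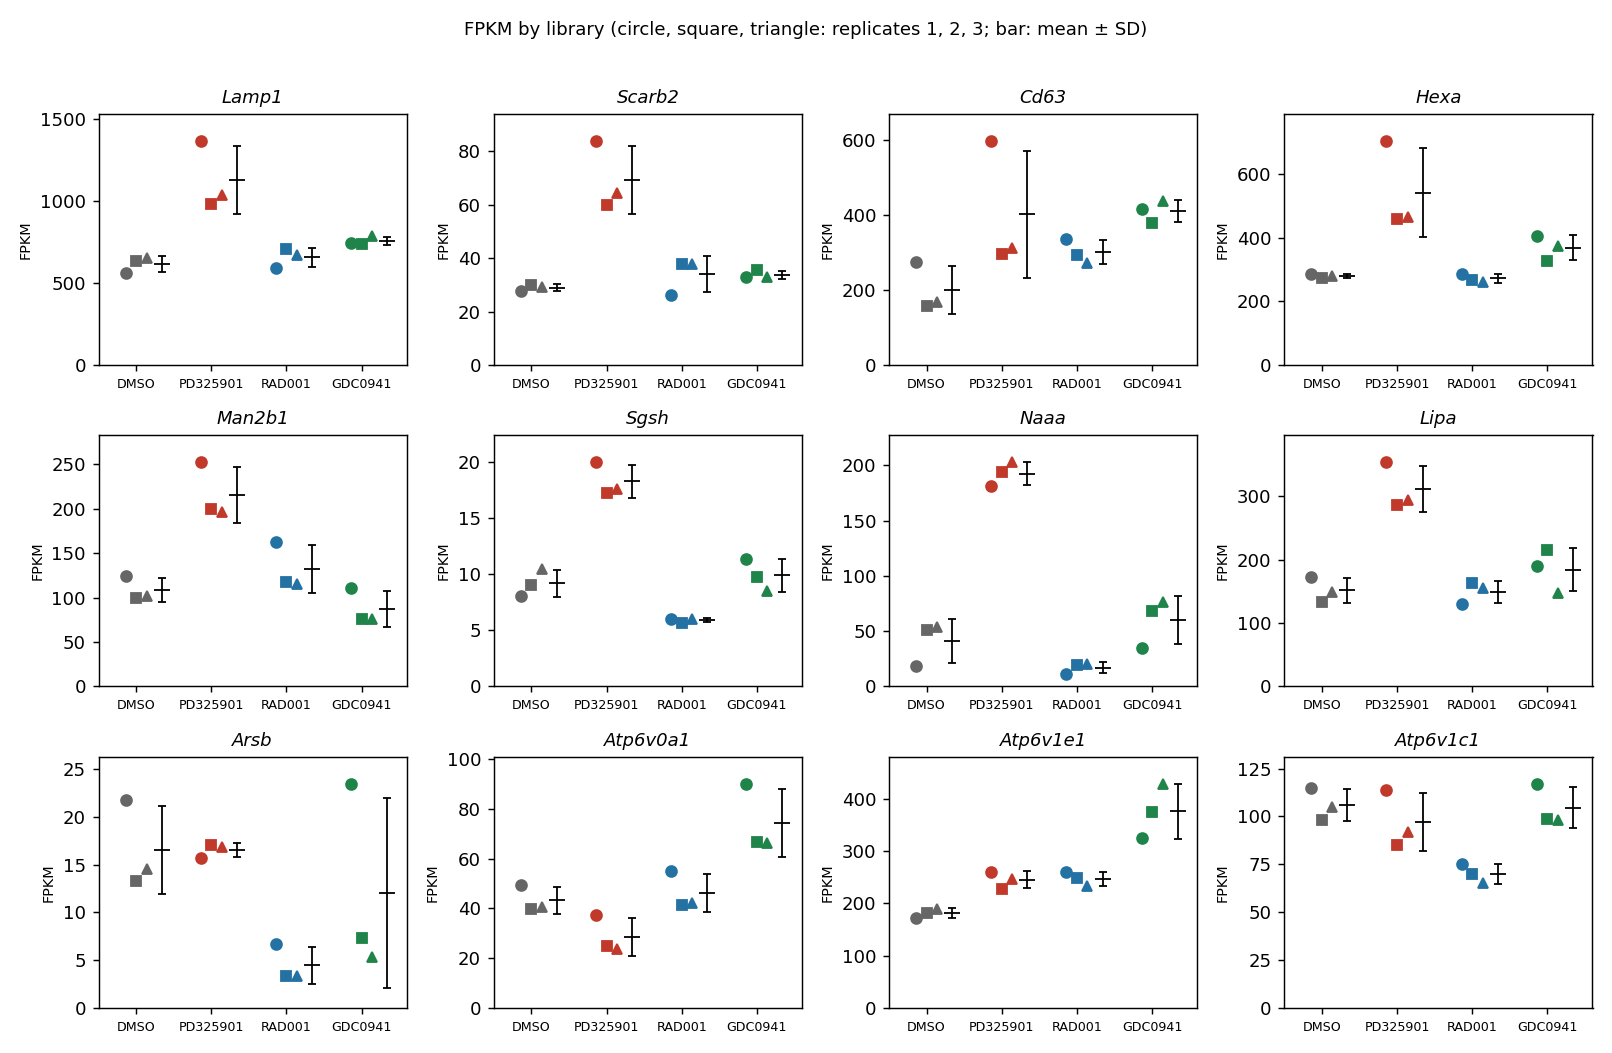
FPKM of 12 members in each library, 1 panel a gene with its own axis from 0, with the group on the x axis and the replicate by marker (circle 1, square 2, triangle 3), bars giving mean ± SD (n = 3). Lamp1, Scarb2, Hexa, Man2b1, Sgsh, Naaa and Lipa have all PD325901 points above the DMSO points, and Atp6v0a1 and Atp6v1e1 peak with GDC0941.

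The glycosidases cut sugars from glycoproteins and glycolipids. With PD325901 3 of 8 were higher (Hexa, Man2b1 and Manba), with RAD001 Gaa alone and with GDC0941 Manba alone. The shares over all genes were 18.4%, 15.4% and 11.6%. Hexa, the alpha chain of beta-hexosaminidase, stood at 286, 275 and 279 FPKM with DMSO, 704, 457 and 463 with PD325901, 287, 268 and 260.5 with RAD001, and 405, 326 and 375 with GDC0941. All PD325901 values exceed all others, with replicate 1 well above the rest. The log2 change was 0.92 ± 0.15 (adjusted p = 0.000524) with PD325901, -0.04 ± 0.15 (adjusted p = 0.85) with RAD001 and 0.39 ± 0.15 (adjusted p = 0.0786) with GDC0941. Man2b1, the lysosomal alpha-mannosidase, stood at 124, 99.7 and 101 FPKM with DMSO, 252, 199.6 and 196 with PD325901, 163, 118 and 115 with RAD001, and 110.4, 75.7 and 75.5 with GDC0941. Its change with PD325901 was 0.98 ± 0.18 (adjusted p = 0.00112), and with RAD001 it was 0.27 ± 0.18 (adjusted p = 0.274), or 0.27 (adjusted p = 0.018) with the replicate block. With GDC0941 its 2 lowest values lie below DMSO and the third within it, at -0.33 ± 0.18 (adjusted p = 0.212).
Manba, the beta-mannosidase, stood at 17.7, 17.8 and 18.9 FPKM with DMSO, 25.2, 26.98 and 27.1 with PD325901, 17.4, 15.9 and 16.4 with RAD001, and 27.2, 24.4 and 26.01 with GDC0941. The spread within groups is small, and PD325901 and GDC0941 lie together above DMSO. The changes were 0.52 ± 0.07 (adjusted p = 0.000171) and 0.49 ± 0.07 (adjusted p = 0.000792), against -0.12 ± 0.07 (adjusted p = 0.2) with RAD001. Gaa, the acid alpha-glucosidase that degrades glycogen, stood at 29.7, 19.9 and 22.00 FPKM with DMSO, 32.9, 25.4 and 25.3 with PD325901, 29.5, 35.6 and 36.2 with RAD001, and 25.5, 23.7 and 22.6 with GDC0941. RAD001 replicate 1 lies below DMSO replicate 1, so the groups overlap, and the change of 0.50 ± 0.15 (adjusted p = 0.0257) was lost without DMSO replicate 2 or 3, or RAD001 replicate 2 or 3 (adjusted p = 0.0856 to 0.107, log2 change 0.38 to 0.46).
Gusb, the beta-glucuronidase, stood at 179.9, 202 and 199.7 FPKM with DMSO, 251, 168 and 169 with PD325901, 157, 123 and 116 with RAD001, and 258, 159.6 and 173 with GDC0941. All RAD001 values lie below DMSO, yet the change of -0.56 ± 0.20 (adjusted p = 0.0527) did not pass, while it was -0.56 (adjusted p = 0.0154) with the block. Neu1, the sialidase, stood at 39.03, 29.3 and 30.8 FPKM with DMSO, 49.7, 37.3 and 38.4 with PD325901, 32.3, 22.5 and 21.6 with RAD001, and 34.1, 20.7 and 23.9 with GDC0941. Replicate 1 is the highest of each group, and the changes were 0.33 ± 0.20 (adjusted p = 0.204) with PD325901 and -0.37 ± 0.20 (adjusted p = 0.182) with RAD001. With the block they were 0.33 (adjusted p = 0.0069) and -0.37 (adjusted p = 0.00566). Gla, the alpha-galactosidase, changed by 0.28 ± 0.12 (adjusted p = 0.0775) with PD325901, or 0.28 (adjusted p = 0.0288) with the block. Glb1, the beta-galactosidase, changed by -0.12 to 0.00 in the 3 comparisons and was not called.

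Among the 7 sulfatases and other enzymes of glycosaminoglycan breakdown, 5 were called higher and 0 lower with PD325901, and 0 higher and 2 lower with RAD001. None was called with GDC0941, where limma gave 1 higher and 0 lower at an unadjusted p under 0.05. Of all genes 18.4% were higher and 28.2% lower with PD325901, and 15.4% and 15.9% with RAD001. The RAD001 count of 2 in 7 is too small to tell from that share. Sgsh stood at 8.05, 9.03 and 10.4 FPKM with DMSO, 19.96, 17.3 and 17.6 with PD325901, 5.99, 5.68 and 6.04 with RAD001, and 11.4, 9.76 and 8.51 with GDC0941. The groups order as PD325901 above DMSO above RAD001 with no overlap, and GDC0941 overlaps DMSO. The change was 0.93 ± 0.11 (adjusted p = 8.68e-05) with PD325901, -0.55 ± 0.11 (adjusted p = 0.00407) with RAD001 and 0.10 ± 0.11 (adjusted p = 0.582) with GDC0941, and between PD325901 and RAD001 the difference was 1.48 ± 0.11 (adjusted p = 2.15e-06), a 3.09-fold ratio of means. Galns, which removes sulfate from keratan and chondroitin sulfate, stood at 37.6, 41.3 and 40.3 FPKM with DMSO, 76.9, 59.3 and 60.5 with PD325901, 34.9, 39.1 and 39.5 with RAD001, and 45.5, 34.6 and 36.3 with GDC0941. Only the PD325901 values are set apart, with a change of 0.70 ± 0.12 (adjusted p = 0.000802).
Naglu, an N-acetylglucosaminidase that acts on heparan sulfate, stood at 37.98, 29.8 and 31.4 FPKM with DMSO, 66.3, 41.8 and 42.2 with PD325901, 28.5, 24.8 and 24.6 with RAD001, and 45.6, 33.9 and 33.9 with GDC0941. The PD325901 change was 0.56 ± 0.18 (adjusted p = 0.0234) and ended without DMSO replicate 2 or 3, or PD325901 replicate 1 (adjusted p = 0.0687 to 0.08, log2 change 0.35 to 0.53). With RAD001 the values lie below DMSO, with a change of -0.33 ± 0.18 (adjusted p = 0.177), or -0.33 (adjusted p = 0.0195) with the block. Idua, the iduronidase, stood at 14.8, 12.98 and 12.4 FPKM with DMSO, 19.6, 17.7 and 16.97 with PD325901, 13.6, 12.7 and 12.3 with RAD001, and 16.6, 15.1 and 14.03 with GDC0941 and changed by 0.41 ± 0.09 (adjusted p = 0.00362) with PD325901. Ids, the iduronate sulfatase, changed by 0.62 ± 0.15 (adjusted p = 0.0059) in the same comparison, from a mean of 10.4 to 16.6 FPKM.
Arsb, the sulfatase of dermatan sulfate, stood at 21.7, 13.3 and 14.5 FPKM with DMSO, 15.7, 17.1 and 16.8 with PD325901, 6.65, 3.35 and 3.35 with RAD001, and 23.5, 7.35 and 5.34 with GDC0941. It had the largest fall of any member with RAD001, -1.71 ± 0.41 (adjusted p = 0.00954), and the ratio of DMSO to RAD001 means was 3.71. The GDC0941 libraries disagree among themselves, with replicate 1 above every DMSO value and the others well below, so the change of -0.66 ± 0.41 (adjusted p = 0.282) carries a wide error. Arsa, the sulfatase of sulfatides, stood at 12.1, 10.2 and 10.8 FPKM with DMSO, 13.6, 11.3 and 10.9 with PD325901, 10.3, 10.5 and 10.6 with RAD001, and 15.4, 12.6 and 13.04 with GDC0941 and was not called in any of the 3 comparisons, with 0.29 ± 0.10 (adjusted p = 0.0638) for GDC0941.

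Among the lipid and amide hydrolases 4 of 5 were higher with PD325901, 2 were lower with RAD001 and 2 were higher with GDC0941. Of all genes 18.4%, 15.9% and 11.6% were called in these directions. Naaa, which hydrolyses the lipid mediator palmitoylethanolamide, stood at 18.4, 51.5 and 54.2 FPKM with DMSO, 181, 193 and 203 with PD325901, 11.3, 19.3 and 20.5 with RAD001, and 35.2, 68.2 and 76.00 with GDC0941. It had the largest rise of the 48 with PD325901, 2.33 ± 0.39 (adjusted p = 0.000679), a 4.65-fold ratio of means. DMSO replicate 1 is far below the other DMSO libraries and below RAD001 replicates 2 and 3, so RAD001 and DMSO overlap. The RAD001 change of -1.13 ± 0.39 (adjusted p = 0.0485) passed narrowly and ended without DMSO replicate 2 or 3, PD325901 replicate 1, 2 or 3, RAD001 replicate 1, 2 or 3, or GDC0941 replicate 2 or 3 (adjusted p = 0.0515 to 0.171, log2 change -0.86 to -1.27). Lipa, the acid lipase that frees cholesterol and fatty acids from lipoprotein lipids, stood at 172, 133 and 149 FPKM with DMSO, 353, 286 and 295 with PD325901, 129, 163 and 155 with RAD001, and 189.5, 215 and 148 with GDC0941. Its PD325901 values exceed all others, by 1.03 ± 0.15 (adjusted p = 0.000275) over DMSO, and the changes were -0.02 ± 0.15 (adjusted p = 0.917) and 0.27 ± 0.15 (adjusted p = 0.222) with RAD001 and GDC0941.
Smpd1 stood at 13.8, 8.19 and 9.12 FPKM with DMSO, 11.8, 10.8 and 11.1 with PD325901, 6.43, 5.93 and 5.78 with RAD001, and 10.3, 5.71 and 6.14 with GDC0941. The RAD001 values lie below DMSO, with a change of -0.66 ± 0.20 (adjusted p = 0.0284), a call that ended without DMSO replicate 1, or RAD001 replicate 2 or 3 (adjusted p = 0.0766 to 0.0982, log2 change -0.45 to -0.65). Ppt1, the palmitoyl-protein thioesterase, stood at 57.02, 63.8 and 66.04 FPKM with DMSO, 90.4, 77.1 and 79.99 with PD325901, 75.8, 69.1 and 66.3 with RAD001, and 93.99, 87.4 and 90.7 with GDC0941. It was higher with GDC0941, 0.54 ± 0.09 (adjusted p = 0.00148), and PD325901, 0.40 ± 0.09 (adjusted p = 0.00307). Asah1, the acid ceramidase, stood at 106, 112 and 116 FPKM with DMSO, 152, 135 and 139.8 with PD325901, 115, 117 and 110.1 with RAD001, and 146, 137 and 128 with GDC0941. The same 2 inhibitors gave 0.29 ± 0.08 (adjusted p = 0.0166) and 0.35 ± 0.08 (adjusted p = 0.0031), and the GDC0941 call ended without DMSO replicate 1 or 2 (adjusted p = 0.0524 to 0.0575, log2 change 0.26 to 0.29).

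Of the proteases Tpp1, a tripeptidyl peptidase, stood at 63.8, 51.00 and 54.1 FPKM with DMSO, 102, 70.9 and 72.04 with PD325901, 66.4, 58.7 and 58.5 with RAD001, and 75.3, 55.3 and 49.8 with GDC0941. The PD325901 change was 0.52 ± 0.17 (adjusted p = 0.0273) and ended without DMSO replicate 2 or 3, or PD325901 replicate 1 (adjusted p = 0.0746 to 0.106, log2 change 0.35 to 0.49). Lgmn, an asparaginyl endopeptidase that matures cathepsins, stood at 256, 319 and 321 FPKM with DMSO, 303, 257 and 265 with PD325901, 168, 216 and 209.7 with RAD001, and 256, 203 and 238 with GDC0941. All RAD001 values lie below all DMSO values, and the change was -0.59 ± 0.13 (adjusted p = 0.00624). Its changes with PD325901 and GDC0941 were -0.11 ± 0.13 (adjusted p = 0.504) and -0.36 ± 0.13 (adjusted p = 0.0698), neither of which passed. Grn, the most abundant member, stood at 838, 664 and 682 FPKM with DMSO, 1157, 839 and 871 with PD325901, 793, 814 and 788 with RAD001, and 858, 592 and 693 with GDC0941. All PD325901 values lie above the highest DMSO value, the lowest of them barely and replicate 1 clearly, and the change was 0.38 ± 0.16 (adjusted p = 0.0633), or 0.38 (adjusted p = 0.0161) with the block.

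The proton pump had 7 of its 15 genes called with GDC0941, all higher (46.7%, against 11.6% of all genes). With PD325901 2 were higher and 2 lower (13.3% each, against 18.4% and 28.2% of all genes), and with RAD001 3 and 2 (20.0% and 13.3%, against 15.4% and 15.9%). Atp6v1e1, a stalk subunit of V1 and the pump gene called in all 3 comparisons, stood at 171, 182 and 190.2 FPKM with DMSO, 261, 228 and 247 with PD325901, 259, 249 and 233 with RAD001, and 325, 375 and 429 with GDC0941. Each treated group lies wholly above DMSO and GDC0941 above all others. The changes were 1.04 ± 0.10 (adjusted p = 8.93e-05) with GDC0941, 0.43 ± 0.10 (adjusted p = 0.00508) with PD325901 and 0.45 ± 0.10 (adjusted p = 0.00732) with RAD001, and the last became 0.23 (adjusted p = 0.0826) after quantile normalization. Atp6v0a1, an isoform of the large V0 subunit that couples rotation to proton flow, stood at 49.4, 39.7 and 40.5 FPKM with DMSO, 37.1, 24.8 and 23.6 with PD325901, 55.2, 41.3 and 42.1 with RAD001, and 90.1, 66.5 and 66.3 with GDC0941. It was higher with GDC0941, 0.76 ± 0.19 (adjusted p = 0.0123), and lower with PD325901, -0.60 ± 0.19 (adjusted p = 0.0197), and the difference between these inhibitors was -1.37 ± 0.19 (adjusted p = 0.000108). The PD325901 call ended without DMSO replicate 1, or PD325901 replicate 2 or 3 (adjusted p = 0.073 to 0.0806, log2 change -0.49 to -0.52).
In V1, Atp6v1h, the regulatory subunit that bridges to V0, stood at 65.3, 60.1 and 60.9 FPKM with DMSO, 49.2, 39.8 and 44.2 with PD325901, 62.7, 62.1 and 58.3 with RAD001, and 65.4, 53.5 and 59.5 with GDC0941. Only PD325901 sets it apart, with a change of -0.48 ± 0.09 (adjusted p = 0.00174). Atp6v1c1, the clamp between stalk and membrane sector, stood at 115, 98.00 and 105 FPKM with DMSO, 114, 85.1 and 91.9 with PD325901, 75.3, 69.8 and 65.1 with RAD001, and 117, 98.4 and 98.4 with GDC0941. Only RAD001 sets it apart, with a change of -0.59 ± 0.12 (adjusted p = 0.00345). The catalytic subunit Atp6v1a stood at 139, 138 and 138 FPKM with DMSO, 129.9, 120.3 and 128 with PD325901, 111, 106 and 101 with RAD001, and 162, 127 and 113 with GDC0941. It was also lower with RAD001, -0.39 ± 0.11 (adjusted p = 0.0215), a call that ended without DMSO replicate 1, 2 or 3, or RAD001 replicate 2 or 3 (adjusted p = 0.0503 to 0.0745, log2 change -0.35 to -0.39).
Atp6v1b2, the other subunit of the ATP-splitting ring, stood at 194, 209 and 223 FPKM with DMSO, 222, 184 and 195 with PD325901, 257, 183 and 167 with RAD001, and 341, 253 and 288 with GDC0941. Its GDC0941 values lie above DMSO, with 0.48 ± 0.16 (adjusted p = 0.0441), and the call ended without DMSO replicate 1, 2 or 3, PD325901 replicate 2 or 3, RAD001 replicate 2, or GDC0941 replicate 1 or 3 (adjusted p = 0.0559 to 0.122, log2 change 0.37 to 0.53). Atp6v1f, on the central shaft, stood at 203, 185 and 186 FPKM with DMSO, 224, 206 and 206 with PD325901, 190.4, 187 and 159.6 with RAD001, and 222, 223 and 249 with GDC0941. Its GDC0941 change of 0.27 ± 0.09 (adjusted p = 0.0452) ended without DMSO replicate 2 or 3, PD325901 replicate 2 or 3, RAD001 replicate 2, or GDC0941 replicate 2 or 3 (adjusted p = 0.0612 to 0.141, log2 change 0.22 to 0.29). The remaining V1 subunits Atp6v1d and Atp6v1g1 changed by -0.24 to 0.13 and -0.16 to 0.10 over the 3 comparisons and were not called.
In V0, Atp6v0d1, which links the rotor to V1, stood at 128, 154 and 156 FPKM with DMSO, 206, 170.4 and 175 with PD325901, 138, 142 and 137 with RAD001, and 147, 132 and 151 with GDC0941. It was called with PD325901, 0.33 ± 0.10 (adjusted p = 0.0173), and the call ended without DMSO replicate 1, or PD325901 replicate 1 (adjusted p = 0.0669 to 0.0694, log2 change 0.24 to 0.25). Without all replicate 1 libraries it was 0.16 (adjusted p = 0.0994). Atp6v0c, the proton-carrying ring subunit, stood at 280.5, 226 and 196 FPKM with DMSO, 270.2, 188 and 215 with PD325901, 305, 352 and 315 with RAD001, and 291, 316 and 273 with GDC0941, and 2 named pseudogenes make its values uncertain. It was called with RAD001, 0.48 ± 0.15 (adjusted p = 0.0307), and the call was lost in 6 of 22 alternatives. Among these it ended without DMSO replicate 2 or 3, or RAD001 replicate 2 or 3 (adjusted p = 0.0638 to 0.126, log2 change 0.36 to 0.50). Atp6v0e stood at 226, 228 and 227 FPKM with DMSO, 273, 235 and 241 with PD325901, 242, 233 and 219 with RAD001, and 289, 255 and 283 with GDC0941, with 0.28 ± 0.08 (adjusted p = 0.0284) for GDC0941, a call that ended without DMSO replicate 1, 2 or 3, or GDC0941 replicate 1 or 3 (adjusted p = 0.0595 to 0.0786, log2 change 0.24 to 0.28). Atp6v0b, a second ring subunit, stood at 262, 267 and 249 FPKM with DMSO, 333, 282 and 277 with PD325901, 308, 326 and 298 with RAD001, and 320.3, 279 and 367 with GDC0941. All 9 treated values exceed the DMSO values, and the changes of 0.30 ± 0.11 (adjusted p = 0.0593), 0.26 ± 0.11 (adjusted p = 0.0869) and 0.19 ± 0.11 (adjusted p = 0.161) with GDC0941, RAD001 and PD325901 did not pass.
The accessory proteins assist assembly of the pump and both were higher with GDC0941. Atp6ap1 stood at 189.6, 179.7 and 183 FPKM with DMSO, 248, 199 and 199 with PD325901, 213, 224 and 227 with RAD001, and 261, 236 and 260.1 with GDC0941. The changes were 0.45 ± 0.09 (adjusted p = 0.00495) with GDC0941 and 0.26 ± 0.09 (adjusted p = 0.0474) with RAD001, the latter ending without DMSO replicate 1, 2 or 3, PD325901 replicate 2 or 3, RAD001 replicate 1, 2 or 3, or GDC0941 replicate 3 (adjusted p = 0.0526 to 0.134, log2 change 0.25 to 0.29) and at 0.02 (adjusted p = 0.862) after quantile normalization. Atp6ap2, also known as the prorenin receptor, stood at 100.02, 90.2 and 95.9 FPKM with DMSO, 108, 79.2 and 82.7 with PD325901, 116, 105 and 95.2 with RAD001, and 146, 117 and 127 with GDC0941. Its GDC0941 change was 0.44 ± 0.13 (adjusted p = 0.0274) and ended without DMSO replicate 2 or 3, or GDC0941 replicate 1 or 3 (adjusted p = 0.0598 to 0.0941, log2 change 0.35 to 0.45).

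Summed levels put the roles side by side. The 48 members made up 1.31% ± 0.03 of all FPKM with DMSO, 1.78% ± 0.16 with PD325901, 1.20% ± 0.02 with RAD001 and 1.39% ± 0.08 with GDC0941 (SD, n = 3). The luminal share was 0.471% with DMSO, 0.687% with PD325901, 0.391% with RAD001 and 0.433% with GDC0941. Its PD325901 libraries (0.651% to 0.751%) lie above all DMSO libraries (0.461% to 0.482%), and its RAD001 libraries (0.383% to 0.399%) below them. The membrane share was 0.348%, 0.566%, 0.355% and 0.413% in the same order. The pump share was 0.479%, 0.511%, 0.443% and 0.534%, a narrower range. The unscaled sums differ in direction from these shares in places, and the libraries differ in total FPKM. With RAD001 the pump summed to 2499 ± 137 FPKM against 2368 ± 60.2 with DMSO, and all 48 members to 6790.4 ± 227 against 6478 ± 263, so both had the higher mean as sums and the lower mean as shares. With GDC0941 the luminal sum was 2427 ± 321 FPKM against 2329 ± 96.8 with DMSO, again the higher mean as a sum and the lower as a share (SD, n = 3). The ranges of these 3 sums overlap those of DMSO. The luminal sums with RAD001 (2150 to 2253 FPKM) also overlap those with DMSO (2243 to 2434 FPKM), unlike the luminal shares. These sums are led by the most abundant genes, such as Grn, Cd68 and Lamp1.

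**Figure D4:**
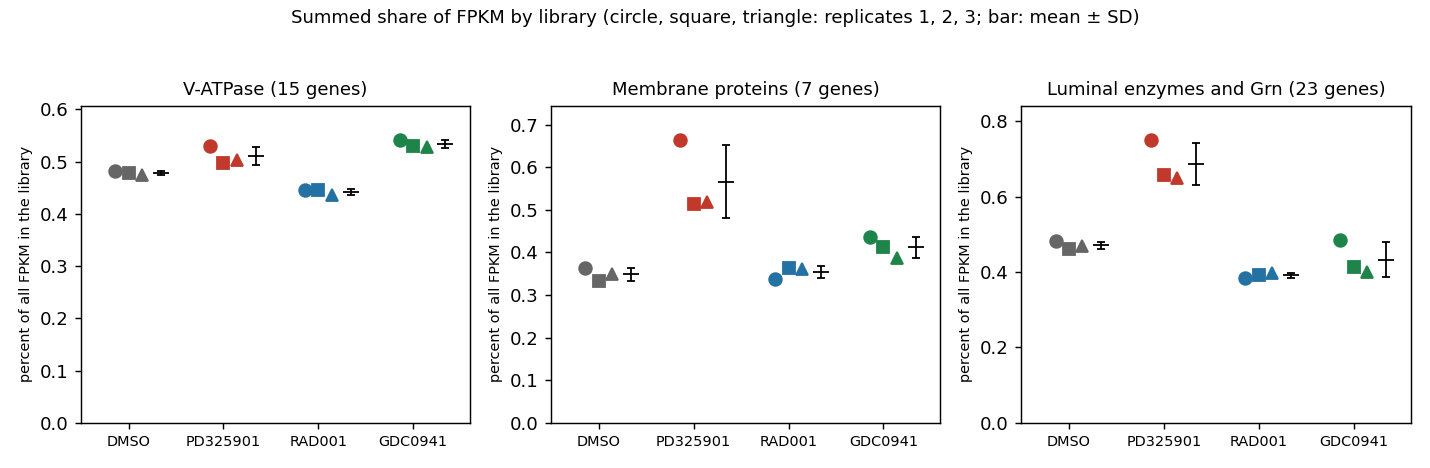
Summed FPKM of the 15 pump genes, the 7 membrane proteins and the 23 luminal proteins as a percent of all FPKM of the library, by group, with a marker for each replicate (circle 1, square 2, triangle 3) and bars giving mean ± SD (n = 3). The luminal and membrane shares stand highest with PD325901, where replicate 1 is the top point, and the pump share is highest with GDC0941.

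Set against each other, PD325901 and RAD001 differed in the most members. In PD325901 against RAD001 25 members were higher and 5 lower, against 20.8% and 29.4% of all genes. Of the 23 luminal proteins 18 were higher and 0 lower. Naaa led with 3.46 ± 0.39 (adjusted p = 3.05e-05), followed by Arsb with 1.74 ± 0.41 (adjusted p = 0.00465) and Sgsh. The 5 lower members were Mitf, Tfe3, Atp6v0a1, Atp6v0c and Atp6v1h, of which quantile normalization ended Tfe3 (adjusted p = 0.0711) and Atp6v0c (adjusted p = 0.152). With the replicate block Atp6ap2 (adjusted p = 0.0428), Lamp2 (adjusted p = 0.0485), Cd68 (adjusted p = 0.0271) and Tpp1 (adjusted p = 0.00485) were gained and Ppt1 was lost (adjusted p = 0.0553).
In PD325901 against GDC0941 18 members were higher and 7 lower, against 20.9% and 30.7% of all genes. Of the 23 luminal proteins 12 were higher and 0 lower. Of the 15 pump genes 6 were lower and 2 higher, which lies nearer the shares over all genes. Of the pump calls, Atp6v0c (lower) was lost in 12 of 22 alternatives, Atp6v1d (higher) in 9 and Atp6v1b2 (lower) in 1. The largest differences were Naaa at 1.74 ± 0.39 (adjusted p = 0.0032), Atp6v0a1 at -1.37 and Man2b1 at 1.31 ± 0.18 (adjusted p = 0.000114). Atp6v1e1 was lower with PD325901, at -0.61 ± 0.10 (adjusted p = 0.000492), although it was higher than DMSO with both.
GDC0941 and RAD001 differed in the fewest members, with 11 members higher and 3 lower (Cln3, Gaa and Man2b1) with GDC0941, against 8.09% and 9.35% of all genes. Naaa differed by 1.72 ± 0.39 (adjusted p = 0.0131) and Sgsh by 0.65 ± 0.11 (adjusted p = 0.0035), and 5 of 15 pump genes were higher, with Atp6v1e1 at 0.60 ± 0.10 (adjusted p = 0.0031). With the replicate block 20 members were higher, and with only those 2 groups in the fit 5. The higher count was 6 and 5 without RAD001 replicate 2 and 3 and 7 without GDC0941 replicate 1. The shares over all genes were 10.6% and 2.4%, and then 3.75%, 3.26% and 6.44%. The 3 lower calls were weak: the lower count was 0 or 1 in 9 of the 12 fits that left out a library, the exceptions being those without replicate 1 of DMSO, PD325901 or RAD001. Without GDC0941 replicate 2, RAD001 replicate 2 or 3, PD325901 replicate 2 or DMSO replicate 3 it was 0.

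**Figure D5:**
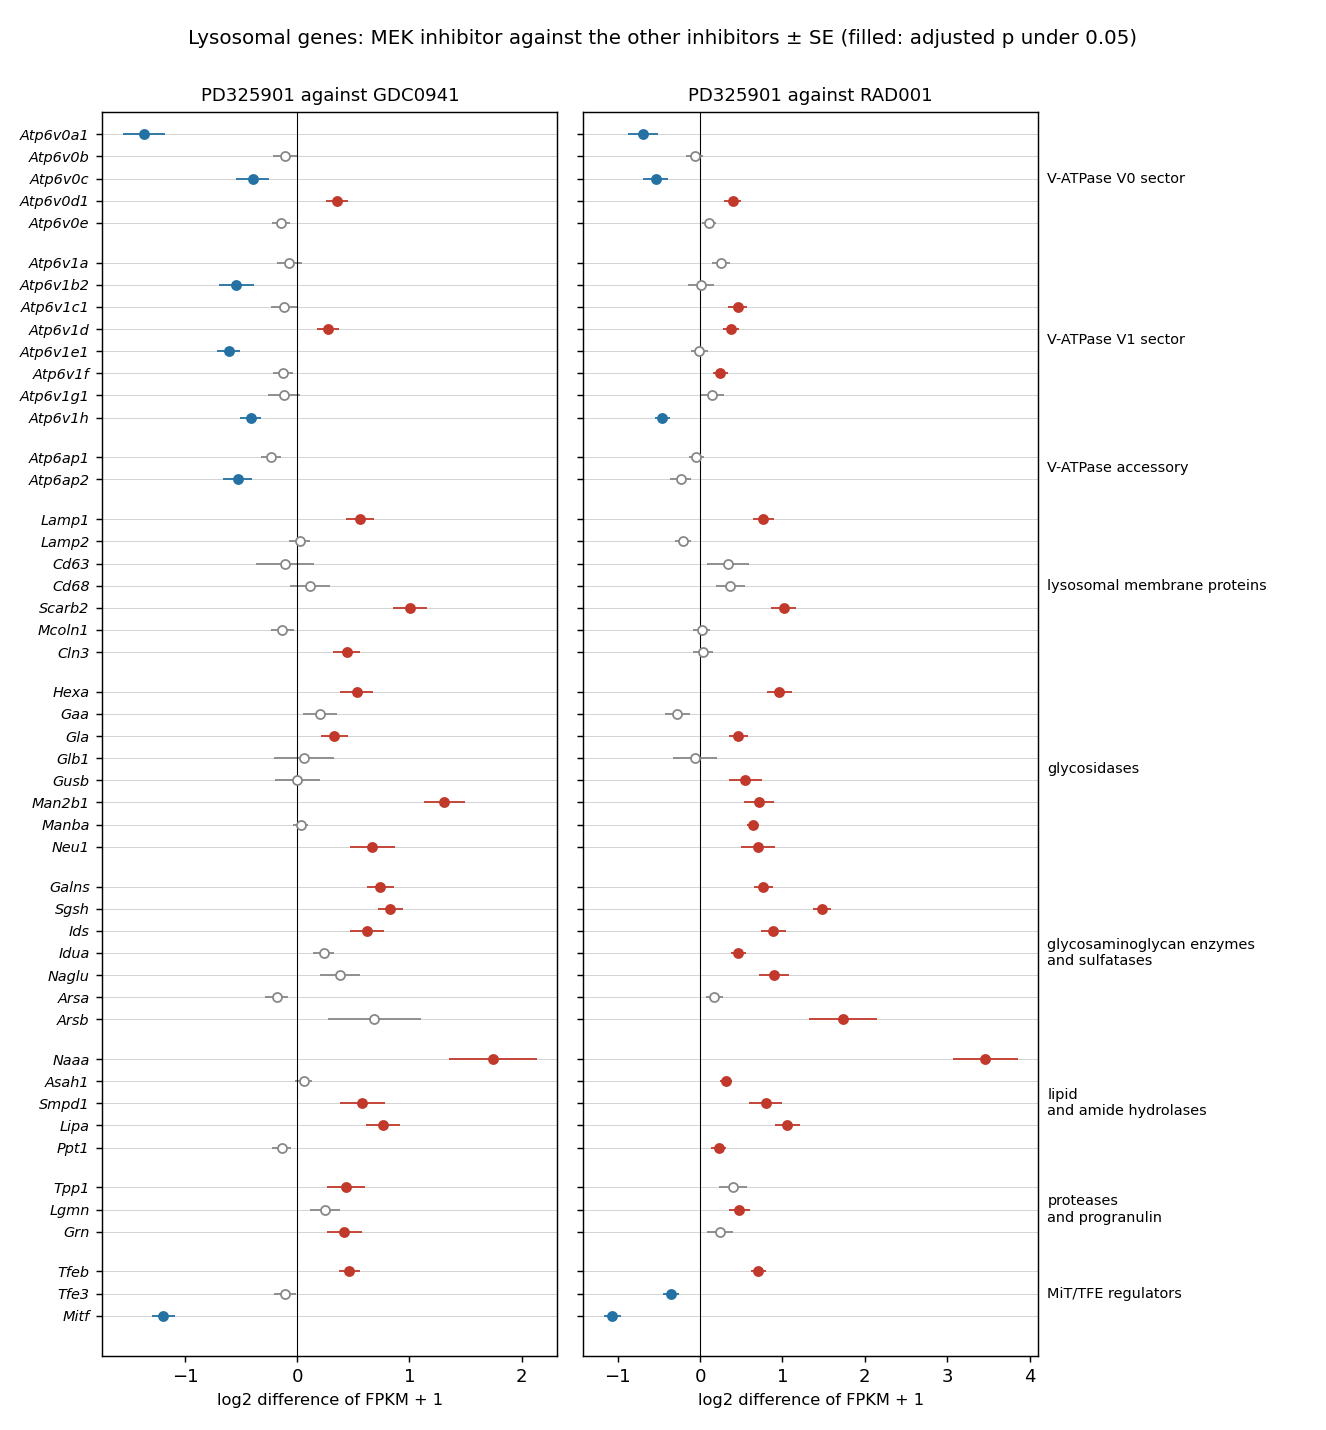
Log2 difference of each member between inhibitors (limma, bars ± SE), PD325901 against GDC0941 and PD325901 against RAD001, with members in rows grouped by role and filled points for an adjusted p under 0.05. Every filled luminal point lies to the right of 0 in both panels, and Mitf and Atp6v0a1 lie to the left in both.

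The calls can be set beside the promoter letters. With PD325901, of the 14 members with a TCACGTG match 5 were higher and 0 lower, against 14 higher and 1 lower of the 28 with a window and no match. With RAD001 the counts were 2 higher and 3 lower with a match, against 7 and 3 without, and with GDC0941 2 and 10 were higher. Over all genes 18.4% were higher and 28.2% lower with PD325901, 15.4% and 15.9% with RAD001, and 11.6% and 12.7% with GDC0941. The higher counts of members with a match lie near these shares with RAD001 and GDC0941. The median log2 change with PD325901 was 0.23 with a match and 0.39 without. Of the members whose sequences are printed, Lamp1, Cln3, Atp6v0d1, Sgsh and Naglu were called higher with PD325901, and Mcoln1, Atp6v1a and Lgmn were not called. Naaa, Scarb2 and Lipa, among the largest rises, had no match in the window.

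Other genes of the pathway were followed as lists. Of 18 further lysosomal enzymes and activators 10 were higher and 2 lower with PD325901, 4 and 3 with RAD001, and 2 and 3 with GDC0941. These are 55.6% and 11.1%, 22.2% and 16.7%, and 11.1% and 16.7%, so that with RAD001 and GDC0941 they lie near the shares over all genes. Acp5, the tartrate-resistant acid phosphatase, stood at 21.7, 11.997 and 12.03 FPKM with DMSO, 144, 81.1 and 82.6 with PD325901, 8.36, 7.31 and 6.02 with RAD001, and 3.99, 5.96 and 6.19 with GDC0941, so that PD325901 and the others lie on either side of DMSO. The changes were 2.67 ± 0.27 (adjusted p = 2.2e-05) with PD325901, -0.94 ± 0.27 (adjusted p = 0.0199) with RAD001 and -1.31 ± 0.27 (adjusted p = 0.00484) with GDC0941. Pla2g15, a lysosomal phospholipase, stood at 20.5, 23.04 and 25.2 FPKM with DMSO, 81.1, 54.1 and 62.2 with PD325901, 11.1, 10.2 and 9.80 with RAD001, and 25.3, 27.4 and 28.3 with GDC0941. Like Sgsh it was higher with PD325901, 1.47 ± 0.13 (adjusted p = 1.22e-05), and lower with RAD001, -1.07 ± 0.13 (adjusted p = 0.000227). Psap, the precursor of the saposins that activate sphingolipid hydrolases, is listed at 3004, 3797 and 3816 FPKM with DMSO and at 0 in each PD325901 library. An exact 0 in such a file can be a failed estimate, and no change is given, although it is one of the 2 counted as lower.
Of 18 further membrane proteins and transporters 11 were higher and 1 lower with PD325901 (61.1% and 5.56%). With RAD001 5 were higher and 5 lower (27.8% each), and with GDC0941 4 and 1 (22.2% and 5.56%). Over all genes the shares were 18.4% and 28.2% with PD325901, 15.4% and 15.9% with RAD001, and 11.6% and 12.7% with GDC0941. With PD325901 the peptide and histidine transporter Slc15a4 changed by 0.87 ± 0.07 (adjusted p = 8e-06), Laptm4a by 0.95 ± 0.11 (adjusted p = 6.68e-05) and the sialic acid exporter Slc17a5 by 0.65 ± 0.09 (adjusted p = 0.00013). Of 8 tested genes for mannose 6-phosphate tagging and sortilin transport, 4 were higher and 1 lower with PD325901 (50% and 12.5%). With RAD001 1 was higher and 2 lower (12.5% and 25.0%), too few to tell from the shares over all genes. None was called with GDC0941, also at an unadjusted p under 0.05 in limma (0 higher and 0 lower). Sort1, the sorting receptor sortilin, stood at 15.2, 14.7 and 15.2 FPKM with DMSO, 83.4, 63.98 and 67.2 with PD325901, 8.96, 13.4 and 14.2 with RAD001, and 14.3, 22.7 and 17.2 with GDC0941 and rose by 2.17 ± 0.18 (adjusted p = 8e-06) with PD325901. Gnptab, the enzyme that makes the mannose 6-phosphate tag, fell instead, with changes of -0.86 ± 0.16 (adjusted p = 0.00117) for PD325901 and -0.60 ± 0.16 (adjusted p = 0.0142) for RAD001. Gga2, an adaptor for tagged hydrolases, changed by -0.79 ± 0.16 (adjusted p = 0.00391) with RAD001.
Of the other pump isoforms 5 of 10 could be tested. Atp6v0d2, the osteoclast and macrophage form of the d subunit, stood at 12.4, 5.84 and 8.19 FPKM with DMSO, 18.4, 18.4 and 19.6 with PD325901, 4.97, 10.1 and 8.94 with RAD001, and 27.01, 40.6 and 36.5 with GDC0941. It rose by 1.90 ± 0.26 (adjusted p = 0.000658) with GDC0941 and 1.07 ± 0.26 (adjusted p = 0.00622) with PD325901. Tcirg1, the osteoclast form of the a subunit, had a higher mean than the isoform Atp6v0a1 in every group. Its means were 203 FPKM with DMSO, 265 with PD325901, 175 with RAD001 and 192 with GDC0941, without the GDC0941 rise of Atp6v0a1. Tcirg1 did not pass with PD325901 at 0.38 ± 0.17 (adjusted p = 0.0904), and Atp6v1g2 was higher there by 0.38 ± 0.14 (adjusted p = 0.0457) at a highest level of 3.01 FPKM. A further list, of 12 tested genes, held the Ragulator, Rag and folliculin proteins that dock mTOR complex 1 at the lysosome, with Rheb and the transcription factor Tfec, another MiT/TFE family gene that does not dock it. Of these, 1 was higher and 2 lower with RAD001 (8.33% and 16.7%, against 15.4% and 15.9% of all genes). With GDC0941 2 were higher and 0 lower (16.7% higher, against 11.6% and 12.7% of all genes). Both sets of counts are too small to tell from those shares. With PD325901 5 were higher and 2 lower (41.7% and 16.7%, against 18.4% and 28.2% of all genes). Tfec is among the 5, at 46.8, 42.05 and 45.7 FPKM with PD325901 and 13.1, 19.2 and 18.5 with DMSO (1.37, adjusted p = 0.0258), and is named after its values were seen. The Ragulator subunit Lamtor4 rose by 0.84 ± 0.12 (adjusted p = 0.000745) with GDC0941 and 0.60 ± 0.12 (adjusted p = 0.00358) with RAD001. The Rag GTPase Rragc changed by 0.29 ± 0.08 (adjusted p = 0.015) with PD325901 and -0.46 ± 0.08 (adjusted p = 0.00198) with RAD001, and its partner Rraga by -0.48 ± 0.12 (adjusted p = 0.00608) with PD325901.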

How the data were processed

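The 12 libraries are total RNA-seq of cultured leukaemia cells, 3 for each of 4 groups taken from the labels. The authors deposited FPKM values per gene symbol, made with TopHat2 2.0.4 and Cuffdiff on mm9, per the submitters' processing notes. The annotation is not given in the sources used here, nor is any scaling of the libraries. The 10305 genes averaging 1 FPKM or more were analysed as log2(FPKM + 1), so changes of low genes are understated. With R 4.3.3 and limma 3.58.1, 1 model with 4 group means was fitted (8 residual degrees of freedom, eBayes with trend). Tests were two-sided, with Benjamini-Hochberg adjustment over all genes within each of 6 comparisons and a threshold of 0.05. The procedure was tested on simulated data. SD is that of FPKM and SE that of the fit.

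The members and lists were chosen with earlier results of these data known. For each role and comparison with DMSO, the 3 members of smallest adjusted p (or fewer) were given in every library, with Tfeb, Tfe3, Mitf, Lamp1 and Cd68 always, and up to 3 genes of each pathway list were named. Of 180 listed genes 176 were matched by symbol and 4 through RefSeq synonyms (Lamtor1, Lamtor4, Lamtor5 and Spi1). Deviations from the group mean of libraries with the same number correlated above 0.1 in all 3 pairs for PD325901 (0.316, 0.240 and 0.183) and RAD001 (lowest 0.201) against DMSO, PD325901 against RAD001 (lowest 0.149) and GDC0941 against RAD001 (lowest 0.309). It was also counted how many of the 3 libraries of the first group correlated best with the library of their own number. They were 3 for PD325901 against DMSO and for GDC0941 against RAD001, and 2 for PD325901 against GDC0941. For RAD001 against DMSO, GDC0941 against DMSO and PD325901 against RAD001 only 1 did. The labels name no pairs, so the pairing rests on these correlations and is uncertain, and the block was fitted as an alternative. Other alternatives were pseudocounts of 0.1 and 5 FPKM, no filter or one at 5 FPKM, quantile normalization, median-ratio scaling, library weights, a fit of only the groups compared, leaving out each library, and, added after seeing the data, leaving out every replicate 1.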

Additional observations from a re-analysis of the deposited data

How the results depend on the processing

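Called under each of the 22 alternatives were 18 of the 23 members called with PD325901 against DMSO, 8 of 16 with RAD001, 7 of 14 with GDC0941, 24 of 30 in PD325901 against RAD001, 17 of 25 in PD325901 against GDC0941 and 5 of 14 in GDC0941 against RAD001. The cause of the changes below was not tested. Quantile normalization turned the sign of 25 of 288 differences (48 members in 6 comparisons), 0 of them called in the main analysis, among them Lamp1 (from 0.09 to -0.27), Cd68 (from 0.11 to -0.20) and Grn (from 0.14 to -0.20) in RAD001 against DMSO. The 4 that were called after it are Atp6v0e in RAD001 against DMSO (from 0.03 to -0.16), and in PD325901 against RAD001 Atp6v0b (from -0.07 to 0.22), Atp6v1e1 (from -0.01 to 0.29) and Atp6ap1 (from -0.05 to 0.23). It also gave 5 higher and 12 lower with RAD001, 1 lower with GDC0941, 3 lower in PD325901 against RAD001 and 19 higher in GDC0941 against RAD001. The shares over all genes were then 17% and 17.6%, 12.5%, 25% and 11.2%. Library weights gave 6 lower with PD325901, 15 higher and 15 lower with RAD001, 6 lower with GDC0941, 10 lower in PD325901 against RAD001, and 19 higher and 6 lower in GDC0941 against RAD001. Of all genes 39.8% were then lower with PD325901, 34.9% higher and 32.3% lower with RAD001, and 20.3% lower with GDC0941. In PD325901 against RAD001 41.7% were lower, and in GDC0941 against RAD001 12.9% were higher and 16.7% lower. In that last comparison no filter gave 0 lower, and only the 2 groups compared 5 higher and 1 lower. Of all genes 5.6% were lower without a filter, and 2.4% higher and 4.41% lower with only those groups. Without the replicate 1 libraries, an alternative chosen after seeing the data, 5 were lower with PD325901, 14 higher and 13 lower with RAD001, 24 higher and 10 lower with GDC0941, 12 lower in PD325901 against GDC0941, 8 lower in PD325901 against RAD001, and 20 higher and 6 lower in GDC0941 against RAD001. In the same order the shares over all genes were 33.2%, 22.8% and 24.2%, 18.9% and 23.1%, 33%, 33.2%, and 15.4% and 17.9%.

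With the replicate block 20 members were higher in GDC0941 against RAD001, against 10.6% of all genes. In GDC0941 against DMSO (lowest pair correlation 0.0354) and PD325901 against GDC0941 (lowest -0.139) the correlations did not all pass 0.1. There the block gave 17 higher and 3 lower, and 20 higher and 8 lower. The shares over all genes were 13.7% and 15%, and 22.5% and 32%.

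Leaving out 1 library gave 17 to 24 higher and 1 to 2 lower with PD325901, 6 to 10 and 4 to 9 with RAD001, and 7 to 18 and 0 to 4 with GDC0941. It gave 21 to 27 higher and 5 to 6 lower in PD325901 against RAD001, 12 to 21 and 5 to 9 in PD325901 against GDC0941, and 5 to 14 and 0 to 3 in GDC0941 against RAD001. In those fits 14.8% to 20% of all genes were higher and 23.3% to 30.6% lower with PD325901. With RAD001 these were 10.5% to 17.4% and 11% to 18.3%, and with GDC0941 6.85% to 13.4% and 9.25% to 17.1%. In PD325901 against RAD001 they were 17.4% to 22.9% and 24.8% to 31.5%. PD325901 against GDC0941 gave 17.8% to 21.8% and 25.8% to 31.2%, and GDC0941 against RAD001 3.26% to 8.81% and 5.56% to 10.5%. Absolute depth is unknown, so counting error could not be weighed for low members such as Sgsh, Smpd1 and Mitf.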
